A study of Mus musculus with 4 samples.

Results

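The genes described here are 10 that encode actins, myosins and proteins of contractile smooth muscle cells: Actb, Actg1, Acta2, Actg2, Tagln, Cnn1, Myl9, Myh9, Myh10 and Myh11. They were chosen by gene symbol, out of 33126 named gene units of which 20518 are coding, and with earlier results of these data known, so their levels are a description. Of the 10 genes, 9 had an entry under exactly their own symbol in all 4 tables, and Actg1 was present in an entry that joins it with the symbol AL669855.1. The study profiled dermal cells of mouse embryos that carry the Axin2-LacZ transgene, in which LacZ follows Axin2, a target and feedback inhibitor of Wnt/beta-catenin signalling. Cells were sorted by fluorescence from ventral foot skin at E17.5 and from dorsal back skin at E14.5, and from each skin 1 library carries the label Axin2-positive and 1 the label Axin2-negative, shortened below to positive-labelled and negative-labelled. The question, per the series design, is whether Wnt signalling in the mesenchyme of different body sites goes with different transcription. How many embryos were pooled is not given in the sources used here.

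Actin filaments are built from nearly identical proteins. Beta-actin (Actb) and gamma-actin (Actg1) form the cytoskeleton of every cell, while alpha-actin (Acta2) and gamma-actin (Actg2) of smooth muscle belong to contractile cells, and Acta2 also marks myofibroblasts. Non-muscle myosin II, with the heavy chains Myh9 or Myh10, pulls on these filaments in fibroblasts, and Myh11 is the heavy chain of differentiated smooth muscle. Myl9 is a regulatory light chain, and Tagln (transgelin) and Cnn1 (calponin) bind actin filaments in smooth muscle. Many of these genes are targets of serum response factor, which binds the CArG box, a motif with CC and GG around a core of A and T bases.

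Each group held 1 library, so no spread between replicates exists and no test was made. Levels are FPKM (fragments mapped to a gene, divided by its transcript length and by the library's mapped fragments) with the lower and upper bound that the authors deposited beside each value. These bounds describe a single library and not the variation between animals. A log2 ratio compares FPKM + 1 after each library was divided by a factor that brings most genes level, and its error after the ± sign combines the authors' bounds. A gene was called higher or lower where it was at least 2-fold apart and its larger rescaled FPKM was at least 5. Read counts were not used and the depth is unknown. The distance from the midpoint of the bounds to either bound was taken as a share of FPKM. Its median was 23.1% and 14.1% in the positive- and negative-labelled foot libraries and 9.0% and 9.9% in the back libraries. By this measure foot values are the less precise.

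Axin2, which should follow the sort, was listed at 9.65 FPKM (7.10 to 12.5) in the positive-labelled foot library and 12.9 FPKM (10.2 to 15.3) in the negative-labelled foot library. In back skin it was 4.49 FPKM (3.89 to 5.09) in the positive-labelled library and 3.13 FPKM (2.63 to 3.64) in the negative-labelled library. The foot values run against the labels, but their bounds overlap, and Axin2 was not 2-fold apart in either skin. These values are as deposited, and dividing by the library factors brings the labels closer in both skins. Axin2 thus separates the labels poorly, so no direction below is attributed to Wnt activity, and libraries are named as labelled. Dermal fibroblast markers (7 of 7 at 1 FPKM or above in every library) summed to between 2490 and 5041 FPKM. The mast cell list summed to 2.17 and 265 FPKM in the positive- and negative-labelled foot libraries, against 24.7 and 84.1 FPKM in the back libraries. All 5 keratinocyte entries were listed at 0 in both foot libraries, and they summed to 34.2 and 16.5 FPKM in the positive- and negative-labelled back libraries. Leukocyte and Schwann cell markers summed to at most 16.8 FPKM in any library.

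The first bases of the coding sequences show how alike the actins are, and where reads could be assigned to a single one. Below are the first 48 coding bases of each from GENCODE vM21 on GRCm38 (Actb, minus strand, chr5:142905639-142905686; Actg1, minus strand, chr11:120348044-120348091; Acta2, minus strand, chr19:34252506-34252553; Actg2, minus strand, chr6:83527394-83527441). Capitals mark bases that differ from Actb, or have no counterpart in it, when the whole coding sequences are aligned with gaps allowed.
Actb: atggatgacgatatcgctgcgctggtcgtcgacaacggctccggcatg
Actg1: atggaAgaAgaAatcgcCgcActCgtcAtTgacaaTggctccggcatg
Acta2: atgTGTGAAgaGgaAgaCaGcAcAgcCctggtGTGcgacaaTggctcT
Actg2: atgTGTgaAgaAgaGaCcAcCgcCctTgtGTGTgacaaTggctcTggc
In these alignments, 9 of the 48 bases are so marked in Actg1, 18 in Acta2 and 17 in Actg2. Over the whole coding sequence, Actb and Actg1 share 88.6% of aligned bases, with identical stretches of up to 62 bases, and Actb and Acta2 share 82.8%. The non-muscle heavy chains Myh9 and Myh10 share 73.9% and have an identical stretch of 122 bases. How the authors' counting treated reads that match more than 1 of these genes is not given in the sources used here, so part of a level could belong to a paralog.

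Cytoplasmic beta-actin was among the most abundant transcripts of every library, yet its deposited value in the positive-labelled back library stood far below the others. Actb, at chr5:143664794-143668433 in mm9, had 574 FPKM (560 to 602) in the positive-labelled foot library and 856 FPKM (837 to 889) in the negative-labelled foot library. It had 202 FPKM (198 to 210) in the positive-labelled back library and 1062 FPKM (1057 to 1094) in the negative-labelled back library. By level, Actb ranked 74 and 47 among coding units in the foot libraries, and 185 and 12 in the positive- and negative-labelled back libraries. The log2 ratio of the positive-labelled library over negative was -0.33 ± 0.07 in foot skin and -2.61 ± 0.05 in back skin. Foot over back it was 1.27 ± 0.07 for the positive label and -1.01 ± 0.05 for the negative label, and the last value shrank to -0.31 on FPKM as deposited.

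The table with the low Actb value holds a further entry over the same gene. In the positive-labelled back library, an entry without a gene name spans chr5:143657540-143665680 (mm9, 8141 bases) and overlaps 887 bases of the Actb entry, at the 3′ end of the gene, which lies on the minus strand and whose last exon has 827 bases in the GRCm38 annotation. It was listed at 1550 FPKM, above its own bounds of 1212 to 1248, and no unnamed entry overlaps Actb in the other 3 libraries. Added to Actb, it brings that library to 1753 FPKM, the highest of the 4. In back skin the log2 ratio of positive over negative then becomes 0.50 instead of -2.61, and foot over back for the positive label becomes -1.84 instead of 1.27. Both directions turn round. FPKM of entries of unequal length do not add exactly, so 1753 FPKM is an approximate level, and neither direction of Actb involving this library is firm.

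Some unnamed entry overlapped between 14.9% and 31.7% of coding units of at least 5 FPKM, by library, but one that was higher than the gene and reached past the edge of its span, by any number of bases, was rare. It was found for 0.550% and 0.960% of these units in the positive- and negative-labelled foot libraries, and for 1.62% and 1.75% in the positive- and negative-labelled back libraries. Flna (filamin A, which crosslinks actin filaments) also had 21.8 FPKM in the positive-labelled back library, with an unnamed entry of 166 FPKM that lies almost wholly within the gene. Unnamed entries overlap Flna in both foot libraries too. Added, they bring it from 37.9 to 161 FPKM in the positive-labelled and from 75.8 to 216 FPKM in the negative-labelled foot library.

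**Figure D1:**
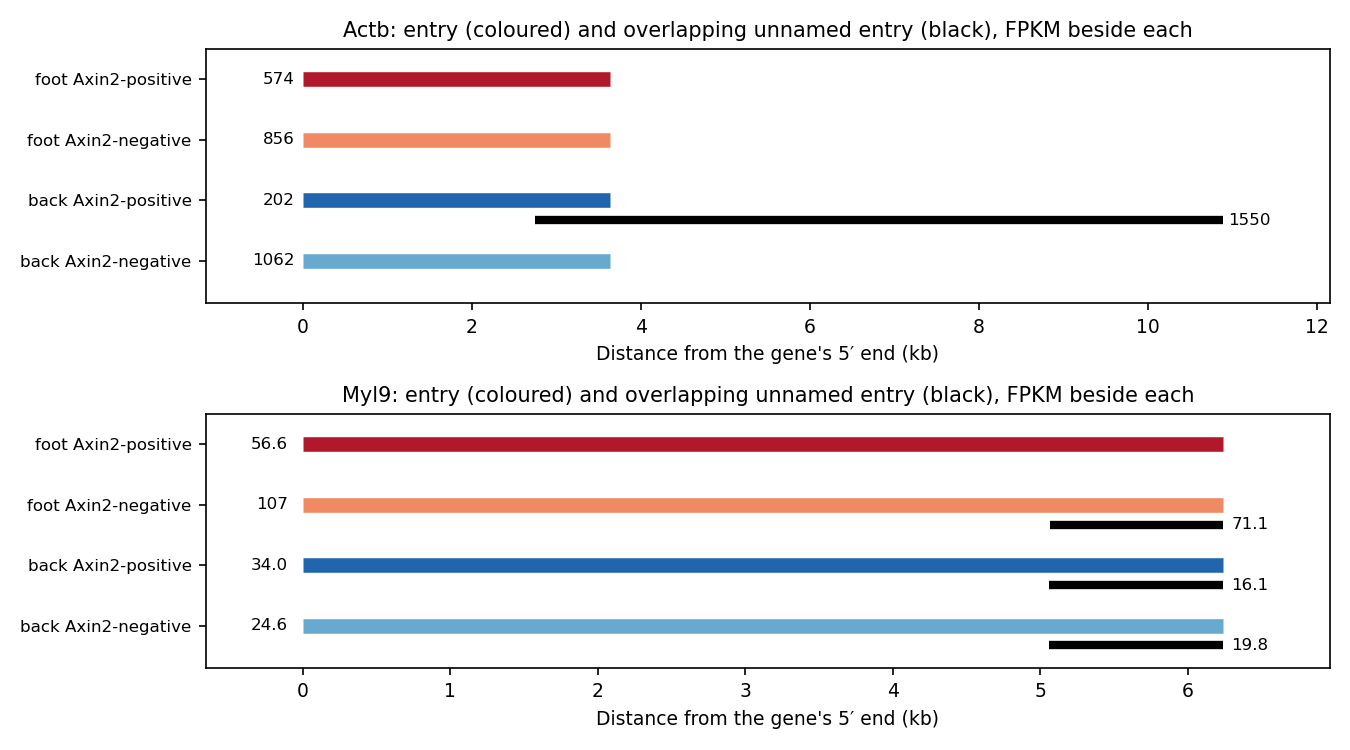
Position of the Actb and Myl9 entries (coloured bars, 1 row per library) and of the unnamed entries that overlap them (black bars), in kb from the 5′ end of each gene on mm9, with the FPKM of each entry beside it. Only the positive-labelled back library has an unnamed entry over Actb (1550 FPKM), while 3 of the 4 libraries have one at the 3′ end of Myl9.

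Gamma-actin (Actg1, joined entry at chr11:120207004-120209856 in mm9) varied less. Its level was 130 FPKM (122 to 143) and 216 FPKM (210 to 227) in the positive- and negative-labelled foot libraries, and 205 FPKM (203 to 213) and 192 FPKM (188 to 200) in the positive- and negative-labelled back libraries. The log2 ratio of positive over negative was -0.48 ± 0.13 in foot skin and -0.13 ± 0.06 in back skin, neither reaching 2-fold, and the back ratio turned to 0.09 on FPKM as deposited. Foot over back it was -0.89 ± 0.12 for the positive label and -0.53 ± 0.07 for the negative label, and the negative label's ratio was 0.17 on FPKM as deposited.

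Because FPKM is scaled by length, the actins can be set against each other within a library. Actb made up 81.4% and 79.7% of the summed actin FPKM in the positive- and negative-labelled foot libraries, and 47.1% and 83.8% in the positive- and negative-labelled back libraries. With the unnamed entry added, the share in the positive-labelled back library was 88.5%. Actb exceeded Actg1 4.42-fold and 3.97-fold in the foot libraries, and 5.54-fold in the negative-labelled back library. In the positive-labelled back library the ratio was 0.987 as deposited and 8.55 with the unnamed entry.

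**Figure D2:**
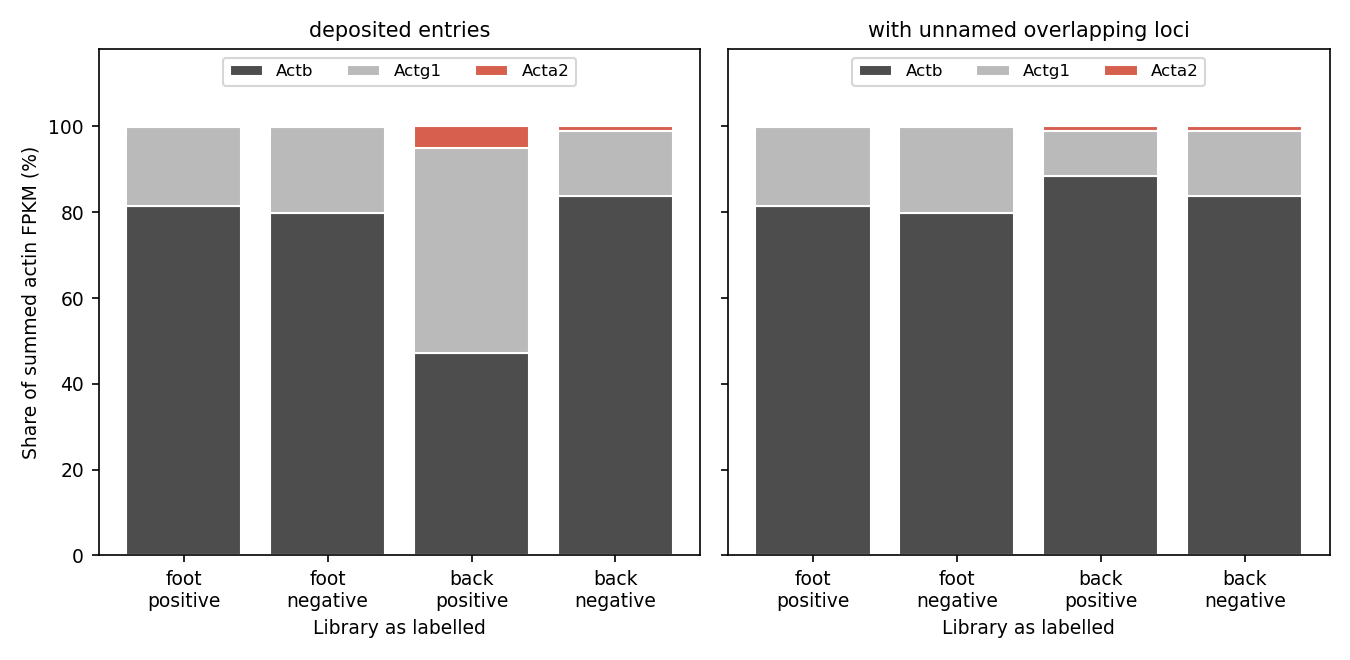
Share of the summed FPKM of the 4 actin genes taken by Actb, Actg1 (joined entry) and Acta2 in each library, from the deposited entries (left) and with unnamed overlapping entries added (right); Actg2 is too low to be drawn. Actb takes 47.1% of the positive-labelled back library on the left and 88.5% on the right, and the other 3 libraries do not change.

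Smooth muscle alpha-actin was the member that separated the skins most plainly. Acta2 (chr19:34315580-34329826, mm9) had 1.67 FPKM (0.806 to 2.65) and 1.98 FPKM (1.31 to 2.63) in the positive- and negative-labelled foot libraries, against 21.9 FPKM (20.4 to 23.4) and 13.7 FPKM (11.3 to 13.9) in the positive- and negative-labelled back libraries. Both back libraries lay above both foot libraries, with no overlap of the bounds. The log2 ratio of foot over back was -3.28 ± 0.49 for the positive label and -2.85 ± 0.32 for the negative label, and it stayed between -3.86 and -2.30 under the settings tried. Within a skin the labels differed less, by -0.0015 ± 0.56 in foot skin, at a level under 5 FPKM, and by 0.44 ± 0.16 in back skin. Skin site and embryonic stage differ together in this design and cannot be told apart, and in bulk libraries fewer cells of a type and less RNA per cell cannot be told apart either.

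The smooth muscle genes Actg2, Cnn1 and Myh11 were near 0 in all libraries. Actg2 (chr6:83462899-83486259, mm9) was listed at 0 in 3 libraries and at 0.0597 FPKM (0 to 0.365) in the negative-labelled back library. Cnn1 (chr9:21903725-21914074, mm9) was at 0.189 FPKM (0 to 0.433) in the positive-labelled foot library and listed at 0 in the one labelled negative, against 0.483 FPKM (0.319 to 0.637) and 0.234 FPKM (0.114 to 0.341) in the positive- and negative-labelled back libraries. Myh11 (chr16:14194620-14291501, mm9) lay between 0.0107 and 0.108 FPKM. None of these 3 genes reached 1 FPKM anywhere, so no fold change is given for them.

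Acta2 was thus higher in back skin, while Actg2, Cnn1 and Myh11 stayed under 1 FPKM. Other contractile members were present there. Myl9 had 34.0 and 24.6 FPKM in the positive- and negative-labelled back libraries, and Tagln had 10.7 FPKM in the positive-labelled one and was listed at 0 in the other. Their listed foot values were higher, at 56.6 and 107 FPKM for Myl9 and 13.9 and 13.6 FPKM for Tagln. Endothelial markers (6 of 6 found) were, like Acta2, higher in back skin. They summed to 0.979 and 0.461 FPKM in the positive- and negative-labelled foot libraries, against 6.32 and 4.42 FPKM in the back libraries. Of these, Pecam1, Cdh5, Emcn and Cldn5 were listed at 0 in both foot libraries. Markers of pericytes and smooth muscle (8 of 8 detected in every library) summed to 24.0 and 19.2 FPKM in the positive- and negative-labelled foot libraries, and to 20.1 and 19.2 FPKM in the back libraries. After rescaling these sums were 22.2 and 15.0 in the foot libraries, against 21.8 and 24.3 in the back libraries, so for the negative label the back sum was the higher. Within the list, Rgs5 (a pericyte marker) was at 7.53 and 4.74 FPKM in the positive- and negative-labelled foot libraries, against 0.283 and 0.199 FPKM in the back libraries. Pdgfrb (the receptor for platelet-derived growth factor B) was at 4.96 and 8.07 FPKM in the foot libraries, against 8.56 and 14 FPKM in the back libraries, in the same order of labels. Skeletal muscle markers (7 found) summed to 6.86 and 25.9 FPKM in foot skin and 7.56 and 6.98 FPKM in back skin. Myog (a regulator of muscle differentiation) was listed at 0 in both foot libraries, and was at 0.614 and 0.529 FPKM in the back libraries. Myl1 ran the other way, at 0.565 and 12.1 FPKM in the positive- and negative-labelled foot libraries, against 0.240 and 0.541 FPKM in the back libraries. Mylpf had 5.52 and 8.92 FPKM in foot skin, against 4.45 and 4.66 FPKM in back skin, in the same order of labels. The part of these cells in the Acta2 levels was not tested.

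By the root mean square distance of centred log2 levels over the 4 libraries, the genes with the pattern nearest to Acta2, among 6638 candidates, were Ptx3, Insig1, Tex15, Irx1 and Tmeff2, at distances of 0.12 to 0.19. Ptx3 (pentraxin 3, a secreted pattern recognition protein) had 2.98 and 2.52 FPKM in the positive- and negative-labelled foot libraries, against 29.1 and 18.1 FPKM in the back libraries. The genes nearest to Actb were Atp5f1, Xpo6, Wdr34, Flna and Col6a3, at distances of 0.27 to 0.35. This ranking rests on the 202 FPKM of the positive-labelled back library, in which Flna likewise has an unnamed entry of its own. With its unnamed entry added to Actb, none of these 5 remained among the nearest, which were then Eif4g1, Cdc42ep2, Pxk, Mrc2 and Tubb6, at distances of 0.036 to 0.105. Myh11 was too low for its pattern to be set beside that of other genes. These likenesses rest on 4 libraries and are a description.

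Transgelin was listed at 0 in a single library. Tagln (chr9:45737711-45744141, mm9) had 13.9 FPKM (11.0 to 16.9) and 13.6 FPKM (11.8 to 15.4) in the positive- and negative-labelled foot libraries, and 10.7 FPKM (9.69 to 11.8) in the positive-labelled back library. In the negative-labelled back library it was listed at 0, with an upper bound of 0.0942 FPKM, and no unnamed entry overlaps it there. The 3 libraries with a value lay close together, at log2 ratios of 0.26 ± 0.34 between the foot libraries and 0.13 ± 0.31 between the foot and back libraries labelled positive. Whether the 0 of Tagln is a failed estimate was not tested. Vcl (vinculin, a protein of cell adhesions) and Arpc1b (a subunit of the actin-nucleating Arp2/3 complex) were listed at 0 in another library, the positive-labelled foot library. No fold is given against the 0 of Tagln, although the gene enters the counts of called members below.

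Of the regulatory light chains, only Myl9 is among the 10 genes, and its listed FPKM was highest in the negative-labelled foot library. Myl9 (chr2:156601156-156607394, mm9) had 56.6 FPKM (47.7 to 66.0) and 107 FPKM in the positive- and negative-labelled foot libraries, against 34.0 and 24.6 FPKM in the positive- and negative-labelled back libraries. In the last 3 of these libraries the value lies above its own upper bound (69.6, 24.3 and 19.3 FPKM). Positive over negative, its log2 ratio was -0.66 ± 0.27 in foot skin and 0.24 ± 0.22 in back skin. Foot over back it was 0.49 ± 0.27 for the positive label and 1.39 ± 0.22 for the negative label. These errors use only the width of the bounds, which do not hold the values, so they understate the doubt. The bounds of the foot libraries, 47.7 to 66.0 and 47.9 to 69.6 FPKM, overlap almost wholly. The sign of the foot ratio thus rests on the listed FPKM alone.

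In the same 3 libraries an unnamed entry of 1177 to 1181 bases lies at the 3′ end of Myl9. It was listed at 71.1 FPKM in the negative-labelled foot library and at 16.1 and 19.8 FPKM in the positive- and negative-labelled back libraries. Added to Myl9, these entries give 178, 50.1 and 44.4 FPKM. Positive over negative, the log2 ratio then becomes -1.39 in foot skin, past 2-fold, and -0.05 in back skin. Foot over back, it becomes -0.06 for the positive label, on the other side of 0, and 1.28 for the negative label, still past 2-fold.

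Of the non-muscle myosin heavy chains, Myh9 differed between labels in opposite directions in the 2 skins. Myh9 (chr15:77591017-77672605, mm9) had 6.33 FPKM (2.63 to 10.2) and 1.5 FPKM (1.18 to 2.58) in the positive- and negative-labelled foot libraries. In back skin it had 3.18 FPKM (2.94 to 3.70) in the positive-labelled library and 13.2 FPKM (11.6 to 14.8) in the negative-labelled library. The library labelled positive was the higher in foot skin and the lower in back skin, and the bounds do not overlap in either. The log2 ratio was 1.66 ± 0.82 in foot skin and -1.99 ± 0.21 in back skin, a difference of 3.65 ± 0.85. Among the genes compared, 1.61% differed between the skins by at least as much. Foot over back, Myh9 was at 0.62 ± 0.74 for the positive label and -3.03 ± 0.40 for the negative label.

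Myh10 was steadier. At chr11:68505061-68630134 (mm9), it had 12.8 FPKM (10.2 to 23.4) and 16.0 FPKM (13.8 to 18.4) in the positive- and negative-labelled foot libraries, and 18.2 FPKM (17.1 to 20.2) and 9.63 FPKM (8.66 to 10.7) in the positive- and negative-labelled back libraries. Positive over negative, its log2 ratio was -0.07 ± 0.72 in foot skin and 0.66 ± 0.19 in back skin, and no ratio of Myh10 reached 2-fold after rescaling. The balance of the heavy chains differed by library. Myh9 was 33.1% and 8.52% of the summed FPKM of Myh9, Myh10 and Myh11 in the positive- and negative-labelled foot libraries, and 14.8% and 57.8% in the positive- and negative-labelled back libraries. Myh9 exceeded Myh10 in the negative-labelled back library, while Myh10 was the higher in the other 3.

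**Figure D3:**
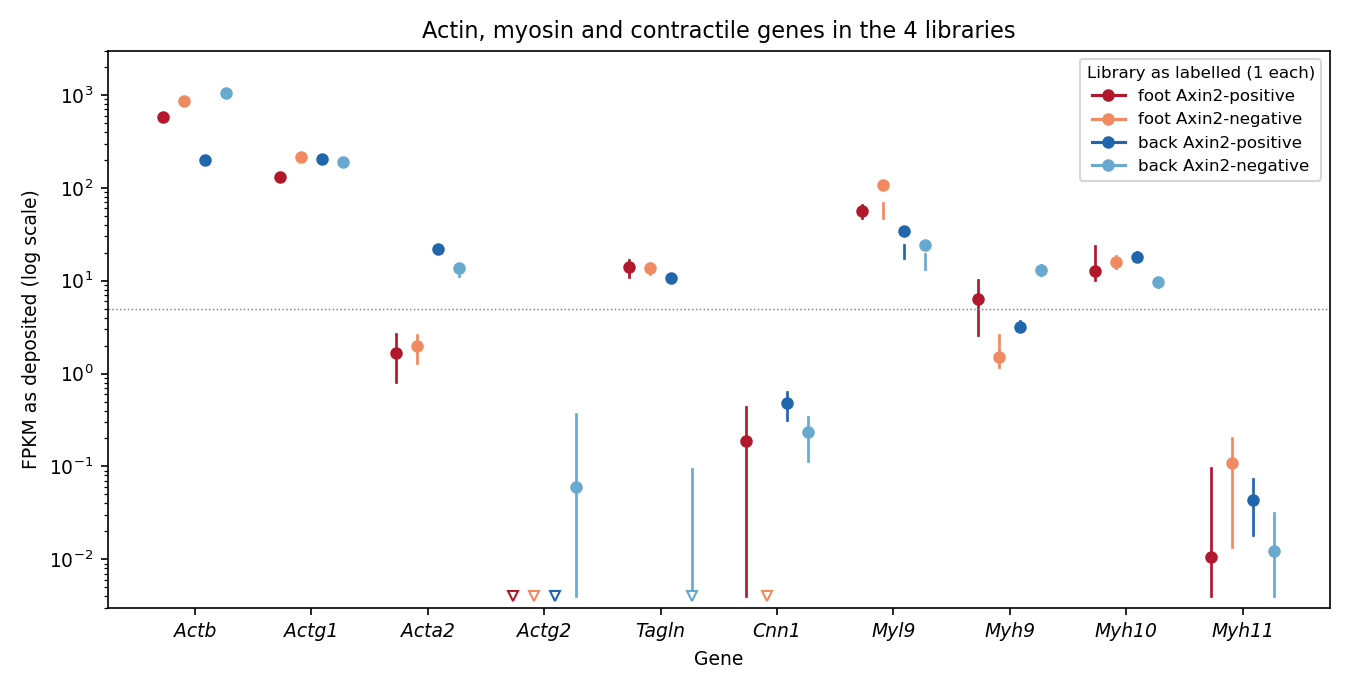
FPKM as deposited (log axis) of the 10 genes in the 4 libraries, 1 point per library with the authors' lower and upper bounds as a line; open triangles at the bottom mark entries listed at 0, lines that reach down to them have a lower bound of 0, and the dotted line is at 5 FPKM. Acta2 lies above 10 FPKM in both back libraries and under 2 FPKM in both foot libraries, and 3 points of Myl9 lie above their own bounds.

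Counted over the 9 genes with an entry of their own, the members were called in both directions. Between the foot libraries, labelled positive over negative, 5 were high enough to be compared and 1 was called, higher (Myh9). Among 5979 gene units 21.2% were called either way, 11.4% higher and 9.83% lower. Between the back libraries 6 were compared and 3 were called, against 7.71% of 5759 gene units either way, 4.05% higher and 3.66% lower. Of these, Tagln was higher through its 0, and Actb and Myh9 were lower; with unnamed entries added, 2 were called, since Actb drops out.

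Foot over back for the positive label, 2 of 6 were called (Actb higher, Acta2 lower), against 31.0% of 6290 gene units either way, 16.1% higher and 14.9% lower. With unnamed entries added the count was also 2, with Actb lower. For the negative label 5 of 6 were called, against 29.0% of 6104 gene units either way, 14.7% higher and 14.3% lower. Myl9 and, through its 0, Tagln were higher, and Actb, Acta2 and Myh9 were lower. Actb passed 2-fold only narrowly, and 4 members were called both on FPKM as deposited, where Actb was at -0.31, and with factors from reference genes, where it was at -0.99. For the foot minus back difference of the label ratios, 3 of 6 were called, against 26.5% of 6822 gene units either way, 13.4% higher and 13.1% lower. Actb and Myh9 were higher in the difference and Tagln lower. With unnamed entries added, Actb was at -0.83 and no longer called, while Myl9, at -1.34, was called lower. On FPKM as deposited 5 members were called.

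The median log2 ratio over the 9 genes was -0.0015 in foot skin and 0.23 in back skin for positive over negative. It was 0 and -0.11 for foot over back with the positive and the negative label. Over all gene units compared the medians were 0.02, -0.0043, 0.04 and 0.03 in the same order of comparisons. The medians of the 9 include genes near or at 0 in both libraries, and the members were chosen with results known, so nothing particular to them is read from these values. Before rescaling, the medians over all gene units were -0.21, 0.20, 0.26 and 0.68.

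**Figure D4:**
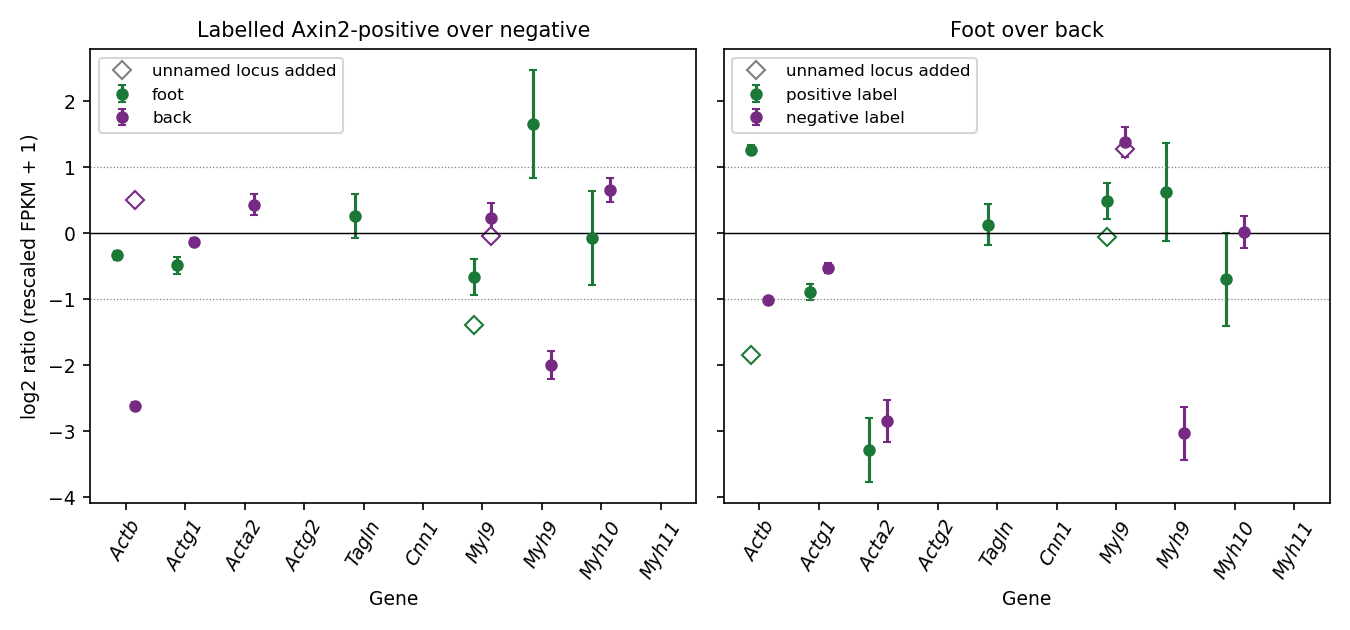
Log2 ratios of rescaled FPKM + 1 for the genes with a larger value of at least 5 and no 0 in the pair; left, the library labelled Axin2-positive over negative in foot and back skin, and right, foot over back for each label. Lines are errors from the authors' bounds, dotted lines mark 2-fold, and open diamonds show Actb and Myl9 with unnamed entries added; Actb crosses 0 in 2 comparisons, and Acta2 lies under -2 in both foot over back comparisons.

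The CArG box was looked for in the 250 bases before the transcription start of each member, because serum response factor acts through it. RefSeq promoters (GRCm38.p6) were matched for 6 of the 10 genes: Actg1, Acta2, Cnn1, Myl9, Myh9 and Myh10. Their starts can lie inside the gene as GENCODE annotates it. The whole Myh10 window (chr11:68691665-68691914) and most of the Acta2 window do so, and thus do not lie before the GENCODE start. A near match keeps CC and GG and has 1 C or G in the core, and changes in CC or GG were not searched. The 3 that hold a CArG box or a near match are printed, with those matches in capitals (Actg1, minus strand, chr11:120348496-120348745; Acta2, minus strand, chr19:34255374-34255623; Myl9, plus strand, chr2:156775214-156775463).
Actg1: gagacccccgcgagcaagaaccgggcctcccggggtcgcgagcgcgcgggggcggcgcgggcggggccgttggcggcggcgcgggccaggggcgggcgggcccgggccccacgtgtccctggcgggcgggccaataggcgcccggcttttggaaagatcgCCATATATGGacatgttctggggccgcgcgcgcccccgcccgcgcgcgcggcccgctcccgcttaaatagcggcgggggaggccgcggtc
Acta2: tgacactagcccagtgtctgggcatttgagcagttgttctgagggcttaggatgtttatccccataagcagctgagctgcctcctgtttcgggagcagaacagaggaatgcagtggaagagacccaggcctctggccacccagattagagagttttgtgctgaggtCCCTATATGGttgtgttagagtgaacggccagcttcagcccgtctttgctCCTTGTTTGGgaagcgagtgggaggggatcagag
Myl9: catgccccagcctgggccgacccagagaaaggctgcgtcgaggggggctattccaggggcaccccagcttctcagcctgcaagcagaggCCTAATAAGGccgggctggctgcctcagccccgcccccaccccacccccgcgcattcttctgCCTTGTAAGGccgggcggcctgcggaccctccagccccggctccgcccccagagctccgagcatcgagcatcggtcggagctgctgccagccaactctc
Actg1 holds an exact CArG box that begins 90 bases before the start, and Myl9 holds one that begins 161 bases before it and a near match at 99. Acta2 holds near matches at 84 and 34 bases. Cnn1, Myh9 and Myh10 hold neither in this window. Searched the same way on both strands, 1.47% of 32851 promoters hold an exact match and 8.59% hold an exact or near match. The 3 genes with a match did not share a pattern over the libraries: Acta2 was higher in back skin for both labels, Actg1 changed by less than 2-fold, and Myl9 was higher in foot skin for the negative label. A match is a description of the sequence and not of binding.

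Genes around serum response factor differed between the skins in both directions. Of 14 (Srf in an entry joined with Cul9), 8 were compared between the foot libraries and 1 was higher and 2 lower in the positive-labelled library, against 21.2% of gene units called either way; on FPKM as deposited 4 were lower. Between the back libraries 7 were compared and 2 were lower in the positive-labelled library, against 7.71% of gene units called either way, and with unnamed entries added 1 was lower. Foot over back, 2 of 8 were higher and 4 lower for the positive label, against 31.0% called either way, and 3 of 9 higher and 5 lower for the negative label, against 29.0%.

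Within this list the immediate early gene Fos was listed lower in the positive-labelled library in both skins, with 8.59 and 40.5 FPKM in the positive- and negative-labelled foot libraries and 32.0 and 99.3 FPKM in the positive- and negative-labelled back libraries (log2 ratios -1.87 ± 0.42 and -1.83 ± 0.10). An unnamed entry of 53.5 FPKM overlaps Fos in the positive-labelled back library. Added to Fos, it gives 85.5 FPKM there and a log2 ratio of -0.43 in back skin, which is no longer called. Junb, another immediate early gene, was listed at 0 and at 3.40 FPKM in the foot libraries, and at 16.3 and 45.7 FPKM in the back libraries, in the same order of labels. Cyr61 and Ctgf, secreted proteins of one family and targets of actin-regulated transcription, ran in opposite directions between the skins. Cyr61 had 7.31 and 20.6 FPKM in the positive- and negative-labelled foot libraries, against 122 and 174 FPKM in the back libraries, while Ctgf had 12.3 and 12.5 FPKM in the foot libraries, against 1.14 and 0.565 FPKM in the back libraries. Thbs1 (thrombospondin 1) was the gene called higher between the foot libraries, at 9.55 and 3.85 FPKM in the libraries labelled positive and negative.

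Proteins that build and turn over actin filaments lay mostly below 0 for foot over back after rescaling, which for the negative label does not hold on FPKM as deposited. Of 18 cytoplasmic regulators, 17 were compared for foot over back, and 7 were lower and none higher for the positive label (median -0.63), against 14.9% of gene units lower; the 7 include Arpc1b, listed at 0 in foot skin. For the negative label 2 were lower and none higher (median -0.40), against 14.3% lower, and 1 was lower with unnamed entries added; on FPKM as deposited, where the median over all gene units is 0.68, the list's median was 0.25, with 2 lower and 3 higher. Gsn (gelsolin, which severs filaments) depended on the label: it had 56.9 and 128 FPKM in the positive- and negative-labelled foot libraries and 145 and 38.8 FPKM in the positive- and negative-labelled back libraries. Its log2 ratio of positive over negative was -0.91 ± 0.17 in foot skin and 1.66 ± 0.13 in back skin. Coro1c (a coronin that binds filaments) had 6.35 and 9.29 FPKM in the positive- and negative-labelled foot libraries, against 15.0 and 35.1 FPKM in the back libraries. The monomer-binding thymosins were the most abundant of the list, with Tmsb4x between 560 and 1129 FPKM and Tmsb10 between 405 and 548 FPKM.

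Crosslinkers and adhesion proteins gave a like picture. Of 14, 13 were compared for the positive label and 5 were lower and none higher in foot than in back skin (median -0.62), Vcl through a 0 in foot skin, against 14.9% of gene units lower and 16.1% higher. Of 12 compared for the negative label 2 were lower and none higher (median -0.62, and 0.03 as deposited), against 14.3% lower and 14.7% higher. With unnamed entries added, 6 were lower for the positive label, and 4 lower and 1 higher (Flna, at 1.05) for the negative label. Zyx (zyxin, of focal adhesions) had 7.66 and 15.2 FPKM in the positive- and negative-labelled foot libraries, against 26.0 and 19.4 FPKM in the back libraries. Parva (parvin, a partner of integrin-linked kinase) was lower in foot skin for both labels. It had 20.7 and 21.7 FPKM in the positive- and negative-labelled foot libraries, against 46.1 and 51.4 FPKM in the back libraries. Ilk (integrin-linked kinase) was called in no comparison after rescaling, at 68.2 and 122 FPKM in the positive- and negative-labelled foot libraries and 72.7 and 56.8 FPKM in the back libraries.

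Tropomyosins and calponins, which coat actin filaments, had none of the 10 compared called between the foot libraries, against 21.2% of gene units called either way. Between the back libraries 1 of 10 was called, against 7.71%: Tpm3, at 22.5 FPKM in the positive-labelled library and 47.3 FPKM in the one labelled negative (log2 ratio -1.26 ± 0.15). Unnamed entries bring Tpm3 to 72.7 FPKM in the positive-labelled back library, where its log2 ratio becomes 0.39 and the call is lost. Tpm1 had 112 and 117 FPKM in the positive- and negative-labelled foot libraries and 180 and 106 FPKM in the positive- and negative-labelled back libraries. By named entries it was the most abundant tropomyosin of the positive-labelled back library, but Tpm4 reaches 213 FPKM there with unnamed entries. Cald1 (caldesmon, which restrains myosin on actin) had 89.2 FPKM in the negative-labelled foot library, against 23.6 FPKM in the negative-labelled back library, or 63.8 FPKM with unnamed entries, where the log2 ratio of 1.19 becomes -0.22.

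Of genes that set myosin activity, 1 of 6 compared (Ppp1r14a) was called between the foot libraries, against 21.2% of gene units either way. Foot over back, 1 of 7 was higher and 2 lower for each label. Among all gene units 31.0% and 29.0% were called either way for the positive and the negative label. With unnamed entries added, none was higher and 2 were lower for the negative label. Myl6, the essential light chain of non-muscle myosin, in an entry joined with Myl6b, had 271 and 279 FPKM in the positive- and negative-labelled foot libraries and 136 and 112 FPKM in the back libraries. Between the back libraries 3 of 7 genes compared were higher in the positive-labelled library and none lower: Rhob (a small GTPase), Ppp1r12a (the targeting subunit of myosin phosphatase) and Ppp1cb (its catalytic subunit). Among all gene units 4.05% were higher and 3.66% lower. Rhob had 40.8 FPKM in the positive-labelled back library and 9.17 FPKM in the one labelled negative, but there an unnamed entry of 50.8 FPKM overlaps it. With it added, Rhob is at 60 FPKM there and its log2 ratio is -0.77 instead of 1.84. Ppp1cb turns likewise, to -1.27 instead of 1.04, so that with unnamed entries added 1 of the 7 was higher (Ppp1r12a) and 1 lower. Ppp1r12a had 14.1 and 4.93 FPKM in the positive- and negative-labelled back libraries, and 1.90 and 2.52 FPKM in the foot libraries. Mylk, which phosphorylates the regulatory light chain, reached at most 4.03 FPKM, in the negative-labelled foot library.

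Other genes of contractile smooth muscle were mostly low. Of 13 found, by named entries 4 or 5 reached 1 FPKM in 3 libraries and 7 in the negative-labelled foot library. Pdlim3, an actinin-binding protein of muscle, was the exception, with 129 and 99.9 FPKM in the positive- and negative-labelled foot libraries, while it was listed at 0 and at 0.221 FPKM in the back libraries. Hspb1, a small heat shock protein that binds actin, ran the other way, with 0.198 and 1.92 FPKM in the foot libraries, against 16.4 and 17.7 FPKM in the back libraries. Unnamed entries bring Nexn from 0.550 to 15.2 FPKM in the negative-labelled back library. They bring Smtn from 13.7 to 25.6 FPKM in the negative-labelled foot library. Foot over back for the negative label, the log2 ratio then becomes -2.66 instead of 0.92 for Nexn and 1.46 instead of 0.62 for Smtn. Myocd (myocardin, the smooth muscle cofactor of serum response factor) was at most 0.623 FPKM. Actc1, the cardiac actin that embryonic skeletal muscle also makes, lay between 0.162 and 2.12 FPKM.

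**Figure D5:**
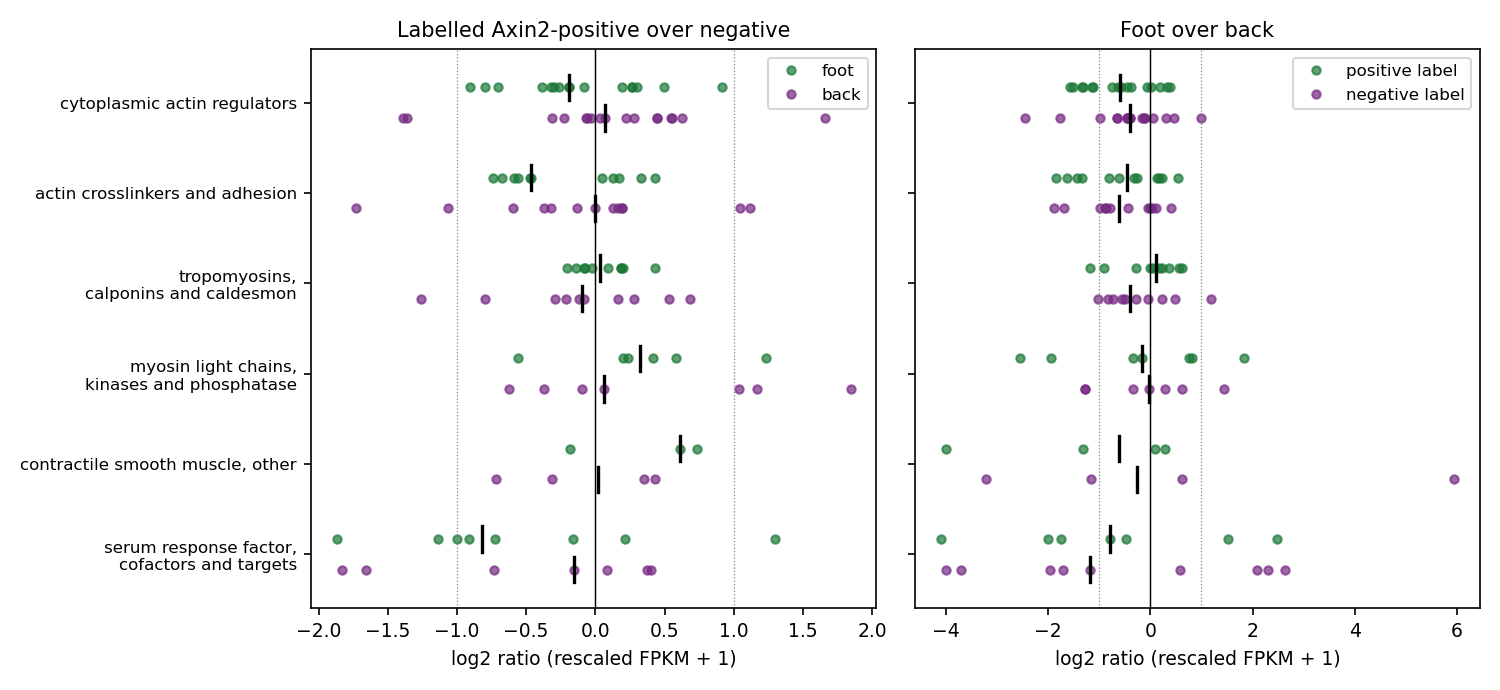
Log2 ratios of rescaled FPKM + 1 for the genes of 6 lists, 1 point per gene with a larger value of at least 5 and no 0 in the pair; left, the library labelled Axin2-positive over negative, and right, foot over back. Black ticks are the medians of the points shown, so they can differ from medians that include genes listed at 0; most actin regulators lie under 0 on the right (for the negative label only after rescaling), and the list of serum response factor spreads to both sides.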

How the data were processed

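Cells were digested out of the skin, sorted, and sequenced as mRNA libraries, per the labels' protocols. The submitters' processing notes name TopHat, Cufflinks and mm9, without versions or settings. The authors deposited FPKM per gene or assembled locus, with a lower and an upper bound of unstated confidence level, per the file headers. Between 4.27% and 10.0% of coding units of at least 5 FPKM lie outside their own bounds.

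Entries of 1 symbol were summed, joined loci were kept as 1 unit, and 22 symbols altered to dates were restored. A 0 is given as listed at 0. Units whose status was not OK in a library (117 coding) were left out of counts. Log2 ratios used a pseudocount of 1 once each library had been divided by its median-ratio factor, 1.08, 1.28, 0.920 and 0.788 (foot labelled positive and negative, back labelled positive and negative) over 3406 units. Ratios printed without a factor are named as deposited. The error combines the widths of both values' bounds in quadrature. The calculation (Python 3.11.15, numpy 2.4.6) was tested on simulated data.

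The members and the 16 lists were chosen with earlier results of these data known. Named from each list, for the comparison described, are genes among the 4 largest ratios with bounds that do not overlap and at least 5 FPKM, and the 2 highest. Mylk, Myocd, Myog, Nexn and Smtn were chosen after their values were seen. Alternatives were FPKM as deposited, factors from reference genes, a pseudocount of 0.1, other filters on low values, the joined Actg1 entry, the largest entry only, and bounds that do not overlap. Adding unnamed entries of at least 500 bases and 5 FPKM to the members and, for counts of calls, to the genes of the lists, and leaving out units listed at 0, were chosen after seeing the data. Coordinates of entries are mm9; sequences are on GRCm38.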

Additional observations from a re-analysis of the deposited data

Results flagged for a closer look

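Myh9 had the positive-labelled library higher in foot skin and lower in back skin. Its log2 ratio in foot skin less that in back skin was 3.65 ± 0.85, with 1 library in each group, so the difference was not tested.

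Entries without a gene name, which the comparisons do not use, overlap members in 3 libraries. The entry over Actb in the positive-labelled back library was listed at 1550 FPKM. The entries over Myl9 were listed at 71.1 FPKM in the negative-labelled foot library, and at 16.1 and 19.8 FPKM in the positive- and negative-labelled back libraries. In the negative-labelled foot library, short unnamed entries of 87 and 113 bases inside Myh10 were listed at 2089 and 425 FPKM, far above their own upper bounds of 39.8 and 23.0 FPKM, and were not added to it.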

How the results depend on the processing

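No paired analysis was possible because each group has 1 library, and no library could be left out of a comparison. Adding unnamed entries turned Actb round: its log2 ratio became 0.50 for back skin labelled positive over negative, -1.84 for foot over back with the positive label, and -0.83 for the foot minus back difference. The sum of Actb and Actg1, at -1.84, 0.56 and 1.48 in these comparisons, became 0.42, -1.71 and -0.78, and the members called in foot skin went up to 2. On FPKM as deposited that sum was -0.61 in foot skin (-0.36 when rescaled), -1.62 in back skin, 0.79 and -0.23 for foot over back with the positive and negative label (-0.93 for the negative label when rescaled), and 1.01 for the difference, where 5 members were called. With factors from reference genes it was -0.24 in foot skin, 0.73 for foot over back with the positive label and 1.63 for the difference. The members' median for foot over back with the negative label was -0.81 with a pseudocount of 0.1 and -0.49 without units listed at 0. The causes were not tested, beyond what each setting changes. The joined Actg1 entry, the filters on low values, the largest entry only and the bounds rule moved no count past 1.5 times. Foot values have the widest bounds, and the unknown depth leaves low genes such as Myh11 without a usable ratio.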
